A study of Mus musculus with 2 samples.

Results

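The genes described here are 10 that encode antioxidant and glutathione-linked enzymes: Gpx1, Gpx3, Gpx4, Prdx1, Prdx6, Mgst1, Gstm1, Sod1, Sod3 and Cat. They were taken by symbol from the 31053 genes counted, and all 10 were found. Their UMIs, each of which stands for 1 captured transcript molecule, were read in dermal cells of C57BL/6 mice aged 8 weeks that carried PdgfraDreER-tdTomato, a tamoxifen-inducible Dre recombinase driven by Pdgfra together with a red reporter. Both groups carried these alleles. One library came from untreated skin (UT) and the other from skin given imiquimod (IMQ), a Toll-like receptor agonist that causes psoriasis-like inflammation, for 7 days. After removal of the epidermis, live CD45-negative and tdTomato-positive cells were sorted, so the cells are those that had expressed Pdgfra when the label was induced together with their descendants. There was 1 library per group, and the number of mice behind each is not given in the sources used here. No difference between UT and IMQ therefore has a replicate check. All intervals are given at 95% and reflect counting error alone, not differences from mouse to mouse or from cell to cell.

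Cells that use oxygen make superoxide and hydrogen peroxide as by-products, and inflamed tissue receives more of both from activated leukocytes. Superoxide dismutases turn superoxide into hydrogen peroxide, which catalase, the glutathione peroxidases and the peroxiredoxins then reduce. Glutathione peroxidases spend the tripeptide glutathione for this, and several of them, Gpx1, Gpx3 and Gpx4 among them, carry selenocysteine in the active site. Glutathione transferases couple glutathione to reactive compounds and so help to detoxify them. Gpx3 and Sod3 are the secreted enzymes of the list, and the other 8 work inside the cell.

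Barcodes were kept when they held 200 to 5000 detected genes and at most 5% of UMIs from mitochondrial (mt-) genes, which left 1045 of 1415 barcodes in UT and 571 of 5047 in IMQ. The unfiltered IMQ file has fewer barcodes than the study had IMQ cells after filtering. The study also had more UT cells after filtering and doublet removal than the 1045 UT barcodes kept here. Whether either file is the matrix that the study analysed could not be settled. The kept barcodes held 1104798 UMIs in UT and 460947 in IMQ. The median barcode had 741 UMIs and 391 genes in UT, and 659 UMIs and 275 genes in IMQ. A maximum of 10% mitochondrial UMIs kept 1301 and 1043 barcodes. No kept barcode sequence was shared by the libraries. At least 2 of 7 fibroblast markers were seen in 94.3% of UT and 99.6% of IMQ barcodes, although Pdgfra itself was seen in 3.92% and 2.45%. At least 2 markers of 1 other cell type were seen in 15 UT and 7 IMQ barcodes, most of them carrying class II antigen-presenting genes (10 and 7). Gm42418, a gene that overlaps ribosomal RNA, took 1.38% of the kept UMIs in UT and 14.6% in IMQ, which lowers every other gene of IMQ on a scale where each library's UMIs are set to a total of 1000000 (CPM).

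The 10 genes lie on 10 different chromosomes of GRCm38 (GENCODE M21), and all are annotated as protein-coding. Gpx3 is at chr11:54902453-54910377 and Sod3 at chr5:52363791-52371418, both on the plus strand. Mgst1 is at chr6:138140316-138156755 on the plus strand, and Prdx6 at chr1:161240112-161251219 on the minus strand. For these 4 genes, and for Gpx1 (chr9:108338903-108340343, plus) and Cat (chr2:103453849-103485160, minus), no stretch of 50 bases in the last 500 bases of their transcripts occurs in another annotated gene. The other 4 share such stretches with near-identical copies, and their counts are uncertain to that extent. In Gpx4 (chr10:80047166-80056439, plus) 89.9% of the stretches recur, in Gpx4-ps2 and AC122253.3. In Sod1 (chr16:90220754-90226329, plus) 30.2% recur in Gm8566, and the gene also overlaps Scaf4 on the opposite strand. In Gstm1 (chr3:108012255-108017973, minus) 23.0% recur, among others in Gstm3, and in Prdx1 (chr4:116685544-116700822, plus) 21.3% recur in 3 other genes.

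Promoter windows of 300 bases, from 250 before to 50 after a RefSeq start site (GRCm38.p6), were matched for 8 of the 10 genes, with 13 windows in all, and Prdx6 and Sod3 had no entry. The antioxidant response element is the site bound by NRF2, the transcription factor that controls many genes of this kind, and its core was searched as TGACNNNGC on both strands. It was matched in 3 windows, of Prdx1, Mgst1 and Sod1, and in none of the windows of Gpx1, Gpx3, Gpx4, Gstm1 and Cat. Of all 32851 promoter windows of this length, 12.4% held a match. Gpx3 is shown because most of the values below turn on it, and Prdx1 and Mgst1 because they hold a match and lay on opposite sides of the IMQ to UT comparison. The sequences are chr11:54902604-54902903, chr4:116685349-116685648 and chr6:138140277-138140576, all on the plus strand, with the matched letters in capitals. A match is a description of the letters only.
Gpx3: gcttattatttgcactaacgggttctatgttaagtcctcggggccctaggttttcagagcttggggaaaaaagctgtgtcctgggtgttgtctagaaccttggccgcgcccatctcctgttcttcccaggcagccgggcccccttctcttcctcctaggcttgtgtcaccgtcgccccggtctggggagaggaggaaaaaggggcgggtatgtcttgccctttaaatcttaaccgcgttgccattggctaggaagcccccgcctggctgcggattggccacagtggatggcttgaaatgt
Prdx1: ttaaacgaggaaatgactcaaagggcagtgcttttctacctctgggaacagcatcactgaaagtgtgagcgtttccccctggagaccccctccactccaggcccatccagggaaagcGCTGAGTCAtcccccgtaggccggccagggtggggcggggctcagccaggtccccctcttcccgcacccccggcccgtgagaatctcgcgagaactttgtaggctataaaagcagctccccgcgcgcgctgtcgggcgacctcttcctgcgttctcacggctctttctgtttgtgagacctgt
Mgst1: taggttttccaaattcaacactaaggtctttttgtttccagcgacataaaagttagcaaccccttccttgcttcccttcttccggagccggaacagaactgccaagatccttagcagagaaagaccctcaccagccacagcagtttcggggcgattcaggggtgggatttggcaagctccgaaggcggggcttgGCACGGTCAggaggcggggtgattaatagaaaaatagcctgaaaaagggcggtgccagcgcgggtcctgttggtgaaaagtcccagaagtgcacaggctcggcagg
The match begins 133 bases before the start site in Prdx1 and 56 bases before it in Mgst1, and in both it reads in the core's orientation on the minus strand. The RefSeq start sites used lie 401 (Gpx3), 55 (Prdx1) and 211 (Mgst1) bases after the GENCODE gene starts. By the GENCODE coordinates the whole Gpx3 window and the Mgst1 match therefore lie inside the annotated genes.

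Gpx3, the secreted plasma-type glutathione peroxidase, had the most UMIs of the 10 genes in both libraries. It had 1469 UMIs in UT, 1330 CPM (interval 1263 to 1399), and 518 UMIs in IMQ, 1124 CPM (1029 to 1225). Since the kit counts the 3′ end of each transcript once, CPM are shares of molecules and need no scaling by transcript length. Summed over the 10 genes, the level was 4219 CPM (4099 to 4342) in UT and 3523 CPM (3354 to 3699) in IMQ.

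Gpx1, the abundant cytosolic peroxidase, had 457 CPM in UT and 393 CPM in IMQ. Gpx4, which reduces peroxidised membrane lipids, had 479 CPM and 276 CPM. Among the peroxiredoxins, Prdx1 had 508 CPM in UT and 256 CPM in IMQ, whereas Prdx6, which also acts on phospholipid peroxides, had 478 CPM and 575 CPM. Mgst1, a glutathione transferase of intracellular membranes, had 505 CPM and 623 CPM. In UT these 5 genes lay within 457 to 508 CPM, and the counting intervals of neighbours in that order overlapped. In IMQ they separated, with Mgst1 and Prdx6 at the top and Gpx4 and Prdx1 at the bottom.

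The remaining 4 genes were lower. The cytosolic transferase Gstm1 had 225 CPM in UT and 126 CPM in IMQ. Sod3, the extracellular superoxide dismutase, had 110 CPM (90.9 to 131) from 121 UMIs in UT and 23.9 CPM (11.9 to 42.7) from 11 UMIs in IMQ. Sod1, the cytosolic dismutase, had 96.9 CPM and 97.6 CPM, and Cat, the catalase of peroxisomes, 30.8 CPM from 34 UMIs and 30.4 CPM from 14 UMIs. Cat was the lowest of the 10 genes in UT, and in IMQ its interval overlapped that of Sod3.

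**Figure D1:**
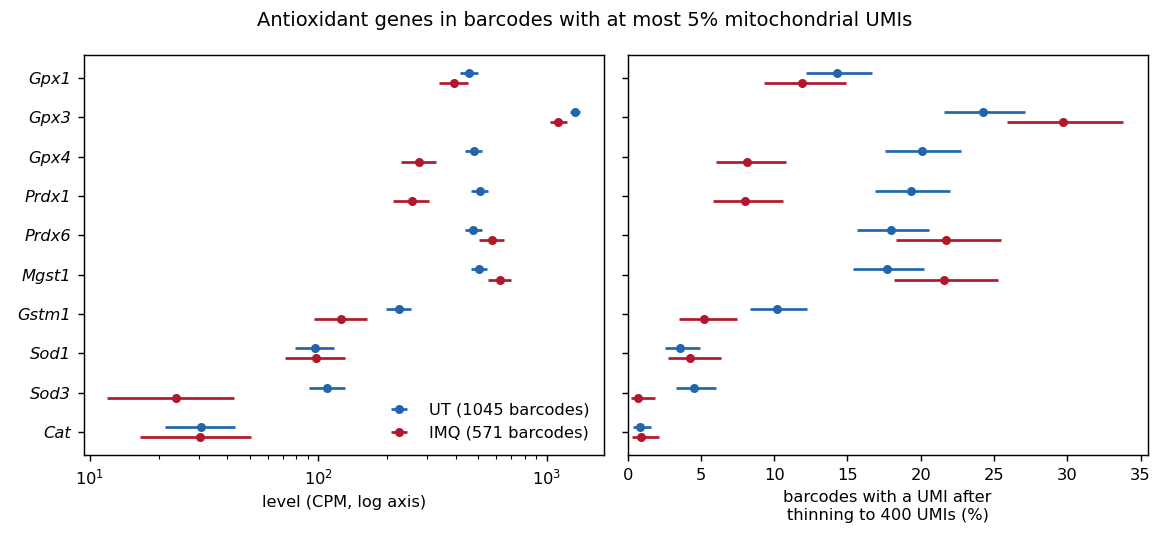
Level of each of the 10 genes in UT (blue) and IMQ (red) barcodes with at most 5% mitochondrial UMIs, as CPM on a log axis (left) and as the percentage of barcodes with a UMI after each was thinned to 400 UMIs (right), with 95% counting intervals. Gpx3 was the highest gene in both libraries, and Sod3 had 110 CPM in UT against 23.9 CPM in IMQ.

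Most barcodes held few or no UMIs of these genes. As counted, Gpx3 was seen in 34.1% of UT barcodes (31.2 to 37.0) and in 42.6% of IMQ barcodes (38.5 to 46.7), although its CPM were not higher in IMQ. Since shares depend on depth, each barcode was also thinned to 400 UMIs, which left out 73 UT and 33 IMQ barcodes. The Gpx3 share was then 24.3% (21.6 to 27.1) and 29.7% (25.9 to 33.8), and the intervals overlapped. Prdx1 was seen in 34.6% and 16.5% as counted and in 19.3% and 7.99% of thinned barcodes. Sod3 was seen in 9.47% and 1.40%, and after thinning in 4.53% (3.31 to 6.03) and 0.743% (0.203 to 1.89). The class II barcodes of the UT library held 0 Gpx3 UMIs among their 10775 UMIs, for which the interval reaches 342 CPM. After thinning, 23.0% of UT and 30.3% of IMQ barcodes held no UMI of any of the 10 genes, and the median barcode held 1 of them.

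How Gpx3 was spread over barcodes differed between the libraries. In thinned UT barcodes 75.7% had no Gpx3 UMI, while 2.26% (1.42 to 3.41, 22 barcodes) had 5 or more and carried 27.7% of all Gpx3 UMIs. In thinned IMQ barcodes 0.372% (0.0451 to 1.34, 2 barcodes) had 5 or more, and barcodes with a single UMI made up 19.7% against 11.2% in UT. The variance of Gpx3 over barcodes was 3.09 times its mean in UT and 1.56 times in IMQ. Of the 85 UT genes with a mean within 1.5 times that of Gpx3, 1 had a ratio at least as high, and their median ratio was 1.27. In IMQ 8 of 77 such genes did. The other 9 genes had ratios from 0.993 to 1.26 in UT and from 0.993 to 1.27 in IMQ, where counting alone gives about 1. Gpx1 and Gpx4 were the highest of these in UT (1.26 each), and Gpx4 in IMQ (1.27). Each lay below the 90th percentile of genes of like mean, at 1.35 in UT and 1.29 in IMQ.

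**Figure D2:**
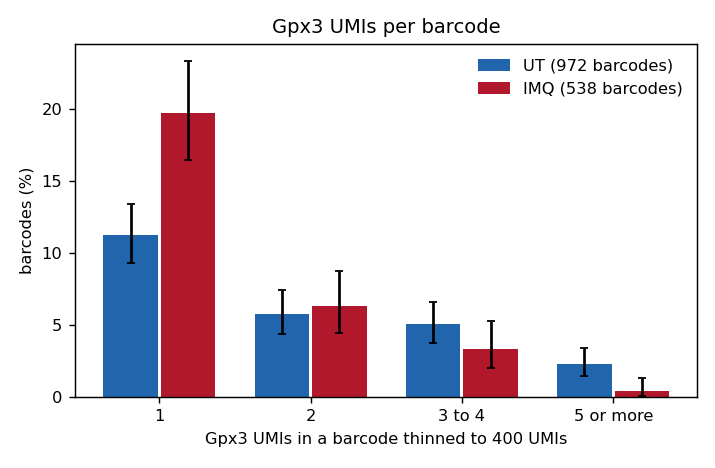
Percentage of barcodes thinned to 400 UMIs that held 1, 2, 3 to 4 or 5 or more Gpx3 UMIs in UT (blue, 972 barcodes) and IMQ (red, 538 barcodes), with 95% binomial intervals. Barcodes with 5 or more were 2.26% in UT and 0.372% in IMQ, and those with 1 were 11.2% and 19.7%.

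The comparison of IMQ with UT asks how these genes stood in the fibroblast lineage of inflamed skin. On the CPM scale the median log2 ratio of the 10 genes was -0.23, beside -0.61 for the 3125 genes with at least 50 UMIs in the libraries together. Because this shift of all genes moved with the scaling, ratios are read both as CPM and relative to the median gene. Of the 10 genes 6 lay above the median gene, as by definition did about as many of all genes (49.9%), and Cat, with 48 UMIs, was under the minimum for that background. Sod3 was the only one of the 10 that was at least 2-fold lower in IMQ, beside 28.4% of all genes, and 0 were 2-fold higher, beside 2.43%. With the 10% maximum 2 of them, Sod3 and Prdx1, were 2-fold lower, beside 30.7%, and 0 were higher, beside 1.96%. Relative to the median gene, 1 was 2-fold lower, again Sod3, beside 10.1%, and 0 were higher, beside 8.19%. None of these counts stands above its background. Under TMM scaling the median of the 10 genes was 0.25 and that of all genes -0.13.

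Sod3 was 4.59-fold lower in IMQ, with a log2 ratio of -2.20 (-3.24 to -1.31), and 124 of the 3125 genes had a lower ratio. It was -1.72 under TMM and -2.60 at a maximum of 10% mitochondrial UMIs. Sod1, which does the same reaction inside the cell, had a log2 ratio of 0.011 (-0.52 to 0.53). The intervals of the extracellular and the cytosolic dismutase do not overlap. The 11 IMQ UMIs of Sod3 came from 8 barcodes, and its 121 UT UMIs from 99.

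Prdx1 was 1.98-fold lower in IMQ (log2 ratio -0.99, -1.29 to -0.70), just inside the 2-fold limit, and 2.13-fold lower with the 10% maximum (-1.09). Gpx4 had -0.80 (-1.09 to -0.52) and Gstm1 -0.84 (-1.28 to -0.42), close to the median gene at -0.61. All 3 kept a negative ratio under TMM, at -0.51, -0.31 and -0.36, where the interval of Gstm1 reached 0.06. These 3 genes share sequence with copies elsewhere in the genome, as does Sod1, whose log2 ratio by CPM was 0.011. Any part of shared sequence in the ratios was not tested.

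Prdx6 and Mgst1 were the pair above 0 whose intervals left it out. Prdx6 had a log2 ratio of 0.27 (0.05 to 0.48) and Mgst1 of 0.30 (0.09 to 0.51), and 2797 and 2814 of the 3125 genes had a lower one. With TMM the ratios were 0.75 and 0.78, while over all deposited barcodes they were -0.082 and -0.29. The Mgst1 interval covered 0 at the 10% maximum (0.11, -0.062 to 0.29), and that of Prdx6 did so without barcodes carrying markers of another type (0.21, -0.013 to 0.42). The peroxiredoxins therefore lay apart, since the intervals of Prdx1 and Prdx6 do not overlap on any of these scales.

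The direction of Gpx3 and Gpx1 depended on the scale and on the barcodes kept. Gpx3 had a log2 ratio of -0.24 (-0.39 to -0.10) by CPM, 0.24 under TMM, 0.23 under median-of-ratios scaling and 0.016 with mitochondrial, ribosomal protein and ribosomal RNA-overlapping UMIs left out. Gpx1 had -0.22 (-0.47 to 0.03) by CPM, 0.26 under TMM and 0.040 with those UMIs left out. By CPM it had 0.70 (0.30 to 1.08) with a minimum of 500 genes, which left 37 IMQ barcodes. Over all deposited barcodes it had -0.75 (-0.91 to -0.59). Relative to the median gene they stood 0.37 and 0.39 higher over all kept barcodes. Cat had -0.019 with an interval from -1.03 to 0.92, so that a difference of up to about 2-fold either way could not have been detected at this depth.

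**Figure D3:**
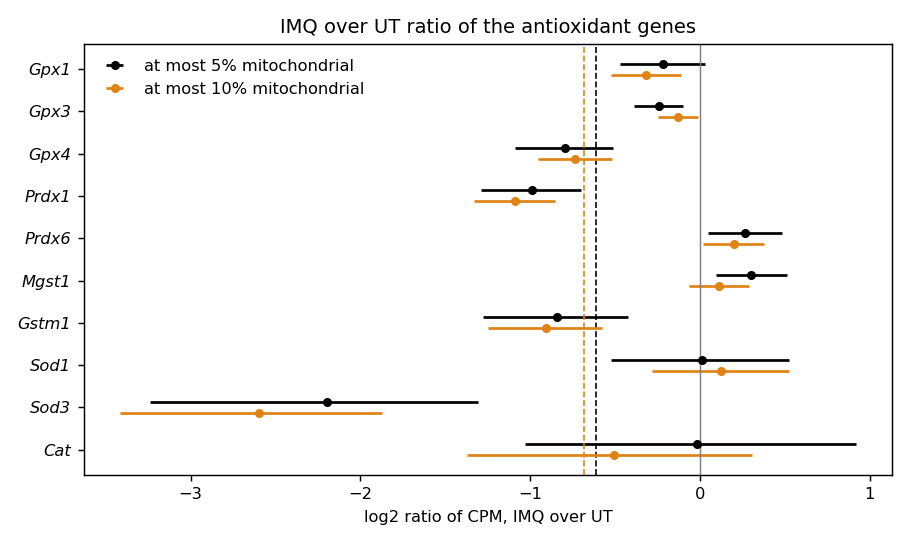
Log2 ratio of CPM, IMQ over UT, of the 10 genes with 95% counting intervals at a maximum of 5% (black) and 10% (orange) mitochondrial UMIs, where dashed lines mark the median of all genes tested (-0.61 and -0.68) and the solid line marks 0. Sod3 lay at -2.20 and -2.60, while Prdx6 and Mgst1 lay above 0, and under TMM scaling, run on the 5% set, the black points and line move up, which takes Gpx1, Gpx3 and Cat above 0.

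Gpx3 was lower in UT barcodes with a larger mitochondrial share, and in IMQ it was not. In UT its level was 1654 CPM (1553 to 1760) in barcodes of 0 to 2.5% mitochondrial UMIs, 939 CPM (856 to 1028) at 2.5 to 5%, 444 CPM (358 to 543) at 5 to 10% and 184 CPM (59.7 to 429, 5 UMIs) at 10 to 20%. In IMQ the same bands had 1097, 1154, 1040 and 1075 CPM. The intervals of the first 3 UT bands did not overlap each other, and all 4 IMQ intervals did. The log2 ratio of IMQ over UT accordingly went from -0.59 (-0.79 to -0.40) in the first band through 0.30 (0.07 to 0.52) to 1.23 (0.90 to 1.57) at 5 to 10% and 2.55 (1.31 to 4.18) at 10 to 20%. The CPM ratio of Gpx3 thus changed sign within the barcodes that the 5% maximum keeps.

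The other genes of the list lay closer to the median gene in UT. Between the band of 0 to 2.5% and that of 5 to 10%, the log2 ratio of Gpx3 was -1.90 (-2.22 to -1.59), and 61 of the 2001 genes tested had a lower one. It was the only one of the 10 genes past 2-fold lower, beside 11.4% of all genes, whose median was -0.22. Gpx1 had -0.74 and Prdx6 -0.55, Mgst1 had -0.15, and Sod3 had 0.71 (0.10 to 1.30). In IMQ the ratio of Gpx3 was -0.08 (-0.30 to 0.15), none of the 10 was past 2-fold lower, beside 9.78% of all genes, and Gpx1 and Prdx1 were lowest among those with at least 50 UMIs, at -0.73 and -0.64. Median UMIs per UT barcode were 753, 739, 668 and 538.5 over the 4 bands. The share of UT barcodes with a UMI of Ctla2a was 19.9%, 12.2%, 5.86% and 6.52%, while that of Pi16, a marker of fascial and adventitial fibroblasts, was 23.0%, 17.1%, 18.8% and 23.9%. The part of depth and of the makeup of the bands in the Gpx3 values was not tested.

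**Figure D4:**
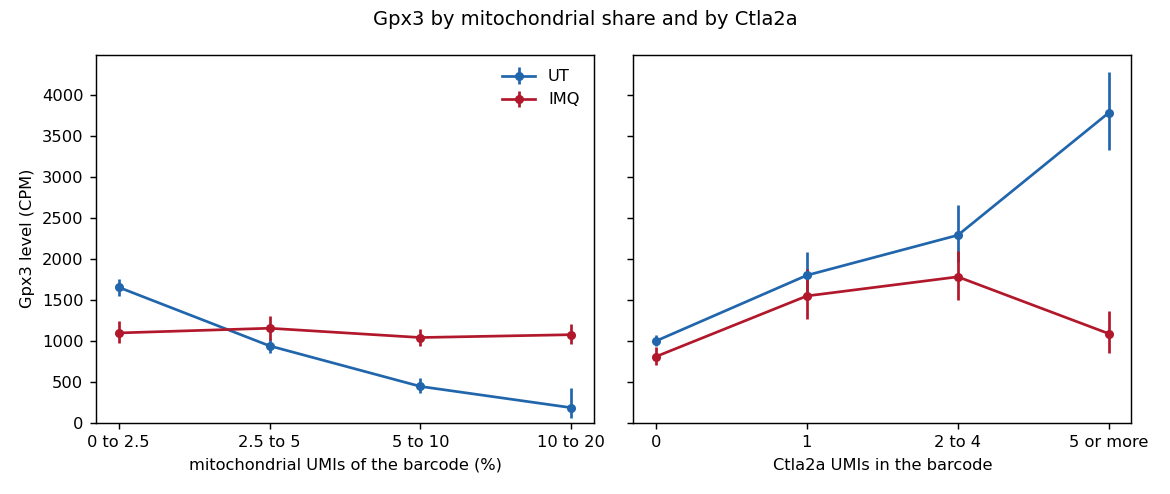
Gpx3 level in CPM, with 95% counting intervals, by the percentage of mitochondrial UMIs in the barcode (left) and by its number of Ctla2a UMIs (right), in UT (blue) and IMQ (red). In UT it went from 1654 to 184 CPM over the mitochondrial bands and from 998 to 3784 CPM over the Ctla2a classes, while in IMQ it stayed between 1040 and 1154 CPM over the bands and was highest at 2 to 4 Ctla2a UMIs.

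Ctla2a encodes a cysteine protease inhibitor, and its level was 543 CPM in UT and 2497 CPM in IMQ. At least 1 Ctla2a UMI was seen in 167 UT barcodes (16.0%) and 278 IMQ barcodes (48.7%), and these were compared with the other 878 and 293. Barcodes are not replicates, so no test was made. The positive barcodes were deeper, with a median of 945 against 706 UMIs in UT and 689.5 against 633 in IMQ.

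In UT, Gpx3 was 2.49-fold higher in Ctla2a-positive barcodes, with 2488 CPM (2295 to 2693) against 998 CPM (932 to 1067), a log2 ratio of 1.32 (1.17 to 1.47). It was seen in 62.3% of positive and 28.7% of other barcodes, and after thinning in 41.4% and 20.9%, where the log2 ratio of levels was 1.44 (1.17 to 1.70). None of the other 9 genes was past 2-fold higher, beside 2.76% of the 2569 genes tested, and 0 of the 10 were past 2-fold lower, beside 5.41%. In IMQ, Gpx3 had 1491 CPM (1332 to 1663) against 808 CPM (699 to 928), a log2 ratio of 0.88 (0.62 to 1.15), and 0 of the 10 genes were past 2-fold higher, beside 1.11% of 808 genes, or 2-fold lower, beside 7.18%. The ratio was therefore above 0 in both libraries, and its UT and IMQ intervals did not overlap, a difference that was not tested. After thinning the IMQ log2 ratio was 0.63 (0.25 to 1.01). Compared within a class, the log2 ratio of Gpx3, IMQ over UT, was -0.74 (-0.94 to -0.55) in Ctla2a-positive barcodes. In Ctla2a-negative barcodes it was -0.30 (-0.54 to -0.080). Relative to the median gene of each class these were -0.29 and 0.28.

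In UT the Gpx3 level was higher in each class with more Ctla2a. It was 998 CPM at 0 Ctla2a UMIs, 1800 CPM at 1, 2290 CPM at 2 to 4 and 3784 CPM (3330 to 4282) at 5 or more, the last in 34 barcodes. In IMQ the same classes had 808, 1548, 1781 and 1088 CPM (854 to 1366), so that the 79 barcodes with most Ctla2a had less Gpx3 than those with 1 to 4 UMIs. Across thinned barcodes Pearson's correlation of both genes was 0.27 in UT (972 barcodes) and 0.03 in IMQ (538 barcodes), which are descriptions of barcodes of 1 library each. In UT barcodes of 5 to 10% mitochondrial UMIs the log2 ratio of Gpx3 was -0.099 (-1.58 to 1.08), with 15 positive barcodes, and in the IMQ band it was 0.41 (0.12 to 0.70).

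The other enzymes lay nearer to 0 than Gpx3. In UT the log2 ratios of positive over other barcodes were -0.29 for Gpx1, -0.081 for Gpx4, -0.063 for Prdx1, 0.0027 for Prdx6, -0.15 for Mgst1, 0.014 for Gstm1, -0.51 for Sod1 and -0.15 for Cat, and every one of these intervals covered 0. Sod3 had -0.81 (-1.65 to -0.07), from 17 UMIs in positive barcodes. The Sod3 interval covered 0 after thinning (-0.74, -2.44 to 0.59), at 2 or more Ctla2a UMIs (-0.66, -1.71 to 0.24) and without barcodes that carried markers of another type (-0.65, -1.48 to 0.097), and in IMQ the ratio was -0.072 (-2.12 to 1.90). In IMQ the intervals of all 9 covered 0, those of Prdx6 and Mgst1 running from -0.16 to 0.56 and from -0.16 to 0.53. Gpx1 had -0.41 there (-0.86 to 0.036). Its IMQ interval left out 0 at the 10% maximum (-0.37, -0.72 to -0.028) and above 10% (-0.82, -1.61 to -0.065). It also did so with top Scrublet scores removed (-0.52, -0.99 to -0.058) and a minimum of 500 genes (-1.32, -2.36 to -0.41). It covered 0 at the other IMQ settings, with 0.33 (-0.39 to 1.06) after thinning. In UT the interval of Gpx1 left out 0 only with that minimum (-0.44, -0.84 to -0.052). Gstm1 had 0.69 (-0.10 to 1.51) in IMQ, from 34 and 24 UMIs. After thinning it had 1.94 (0.60 to 3.52), from 23 and 6 UMIs of 1 random draw, and that interval does not cover differences from draw to draw. Of the 4 UT barcodes with keratinocyte markers 3 were Ctla2a-positive, as was the 1 with endothelial markers, and all 10 class II barcodes were negative. Without the barcodes that carried markers of another type the Gpx3 ratio was 1.41 in UT and 0.89 in IMQ.

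**Figure D5:**
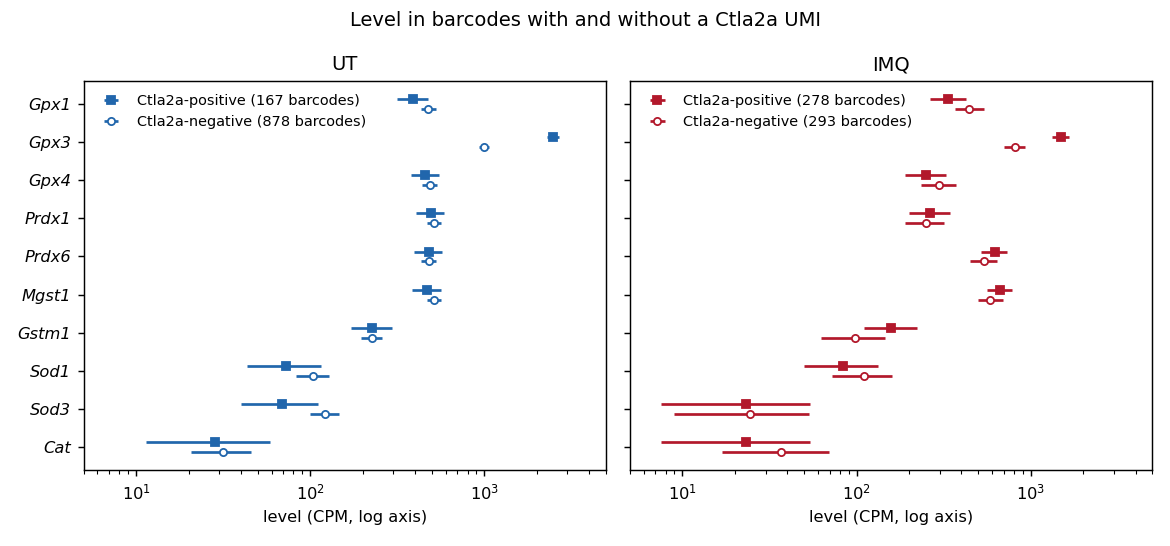
Level of the 10 genes, in CPM on a log axis with 95% counting intervals, in barcodes with a Ctla2a UMI (filled squares) and without (open circles), in UT (left) and IMQ (right). Gpx3 lay apart in both libraries, with 2488 against 998 CPM in UT and 1491 against 808 CPM in IMQ, and the intervals of the other genes overlapped.

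The barcodes were also split by Pi16. In UT the 209 barcodes with Pi16 had 2601 CPM of Gpx3 against 895 CPM in the rest. That log2 ratio was 1.54 (1.39 to 1.69), beside 1.32 for Ctla2a. In IMQ it was 0.59 (0.23 to 0.93), beside 0.88 for Ctla2a. UT barcodes with UMIs of both Pi16 and Ctla2a (72 barcodes) had 3795 CPM (3439 to 4176), and those with Pi16 alone 1827 CPM (1631 to 2041). Those with Ctla2a alone had 1425 CPM (1232 to 1639), and those with neither 789 CPM (724 to 859). In IMQ the levels were 2351 CPM (1815 to 2997, 30 barcodes), 671 CPM (375 to 1106, 17 barcodes), 1355 CPM and 822 CPM. In UT each marker on its own went with more Gpx3 than neither, the intervals of the single-marker groups overlapped, and in IMQ the interval of Pi16 alone covered the level with neither. Barcodes with both had the most Gpx3 in either library. Their median of 1157.5 UMIs in UT against 683 in those with neither moved in the same direction, and its part was not tested.

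Other fibroblast genes marked the low side of Gpx3 in UT. Barcodes with a UMI of Crabp1, a retinoic acid-binding protein, had 399 CPM of Gpx3 against 1549 CPM in the rest, a log2 ratio of -1.96 (-2.29 to -1.64). Those with Mmp3, a matrix metalloproteinase, had 582 CPM against 1478 CPM (-1.34, -1.64 to -1.06). The 24 barcodes with Coch, a secreted matrix protein, held 1 Gpx3 UMI. Crabp1-positive barcodes in contrast had more Gpx1, with 708 CPM against 398 CPM (0.83, 0.54 to 1.11), and less Mgst1, with 323 CPM against 548 CPM (-0.76, -1.15 to -0.39). Gpx4 lay near 0 across the same UT barcodes (0.19, -0.12 to 0.49), so the 3 selenium-dependent peroxidases of the list did not share a direction there. In IMQ Gpx3 was also lower in the 9 barcodes with Crabp1 (-3.34, -5.62 to -1.79, 3 UMIs) and in the 6 with Coch (-1.15, -2.47 to -0.098, 7 UMIs). Barcodes with Dpp4, a membrane peptidase, had log2 ratios of Gpx3 of -0.84 (-1.49 to -0.26) in IMQ and 0.067 (-0.17 to 0.30) in UT. Like those with Crabp1 they had more Gpx1, with 0.77 (0.42 to 1.10) in UT and 1.78 (1.25 to 2.28) in IMQ. The Mmp3 ratio of Gpx3 in IMQ was 0.12 (-0.17 to 0.39), and barcodes with Cthrc1, a secreted collagen-linked protein, had 1579 CPM against 1047 CPM (0.59, 0.27 to 0.90).

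How the 10 genes varied together among barcodes could not be read at this depth. Over the 45 pairs, the median of Pearson's correlation across thinned barcodes was 0.0033 for UT and -0.0024 for IMQ, with a highest value of 0.10 in each, and in counts this sparse values near 0 say little about the cells. The genes most like the summed 10 among 207 compared, by the lower of the UT and IMQ correlations, were Dpt (0.13), Ctla2a (0.12), Tmsb10 (0.10), S100a6 (0.10) and Igfbp6 (0.09). Those most like Gpx3 were Dpt (0.21 in each library), Fstl1 (0.13), Ly6c1 (0.10), Pltp (0.09) and Npc2 (0.08). All points share their library's depth and makeup.

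Of 77 other genes of the same pathways, 34 had at least 50 UMIs, and the log2 ratios of IMQ over UT of these had their median at -0.55, beside -0.61 for all genes. Of the 34, 6 were 2-fold lower, beside 28.4% of all genes, 1 was 2-fold higher, beside 2.43%, and 27 lay within 2-fold. No UMI was seen for 6 of the 77, which include Slc7a11, the cystine transporter that feeds glutathione synthesis, and none of the 7 genes of glutathione synthesis and reduction reached 50 UMIs. The single higher gene was Txnip, which binds and inhibits thioredoxin, with 137 CPM in UT and 286 CPM in IMQ (1.07, 0.72 to 1.41). Next were Ephx1, a microsomal epoxide hydrolase (0.87, 0.12 to 1.61), and Selenop, the secreted selenium carrier, with 579 CPM and 1002 CPM (0.79, 0.62 to 0.97). Lowest were the transferases Gstm2 (-1.69) and Gstp2 (-1.48), and Ccs, the copper chaperone of Sod1 (-1.14).

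The selenoproteins lay on both sides of 0, and also on both sides of the median gene, which was at -0.61. Against Selenop, the small cytosolic Selenow had 1153 CPM in UT and 571 CPM in IMQ (-1.02, -1.21 to -0.82), and Selenom, Selenof and Selenok, which work at the endoplasmic reticulum, had log2 ratios of -0.80, -0.55 and -0.82. Under TMM scaling these differences would all move up by the same amount, and the gap between Selenop and the others would stay. Among the abundant thiol enzymes Prdx2 had -0.57, Prdx5 -0.89, Gstp1 -0.92 and Txn1, the cytosolic thioredoxin, -0.62. At the 10% maximum these were -0.60, -1.04, -1.16 and -0.64, beside a median gene of -0.68, so that Prdx5 and Gstp1 passed 2-fold there. Gstp1 and Gstp2 are near-identical copies, so their split is uncertain.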

How the data were processed

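For 1 UT and 1 IMQ library, made by the authors with the Chromium 3′ kit, the deposited files hold raw UMI counts for every gene in every barcode. Per the file headers these counts came from Cell Ranger 3.0.0 for UT and 3.1.0 for IMQ, and the submitters' processing notes name mm10. Of the 31053 gene identifiers, 31011 were found in GENCODE M21, from which coordinates were taken. Promoter windows are from RefSeq.

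Barcodes with 200 to 5000 genes and at most 5% mitochondrial UMIs were kept, as in the study's methods. The study also removed doublets with DoubletFinder. Here none were removed, and removing the top Scrublet scores (scanpy 1.11.5), at 0.8% per 1000 barcodes, was an alternative that took 12 UT and 23 IMQ barcodes. UMIs were summed over barcodes and given as CPM with exact Poisson intervals, shares with exact binomial (Clopper-Pearson) intervals and ratios with exact conditional binomial intervals, at 95% (scipy 1.17.1). With 1 library per group no test was made. Ratios over all genes used those with at least 50 UMIs in the libraries together, and called means past 2-fold. For the Ctla2a comparison, Ctla2a was left out of the totals. Thinning drew 400 UMIs per barcode without replacement, in 1 random draw. TMM factors came from edgeR 4.0.16 under R 4.3.3. Intervals were checked on simulated Poisson counts, which hold counting error only, so that check does not cover spread over barcodes beyond counting. The variance of Gpx3 over thinned barcodes was 3.09 times its mean in UT and 1.56 times in IMQ. The Gpx3 intervals are too narrow for that spread. To a lesser extent this also holds for genes with ratios somewhat above 1, such as Gpx1 in UT (1.26) and Gpx4 (1.26 in UT, 1.27 in IMQ).

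The members, lists and comparisons were chosen with earlier results of these data known. All 10 members are named. Pathway genes are named when they had at least 300 CPM in the higher library or were among the 3 highest or 3 lowest ratios, and the 5 genes most like a pattern are named by correlation. Likeness to Gpx3 alone, the mitochondrial bands and the splits by Pi16 and other fibroblast genes were added after values were seen, and Slc7a11 was named after its values were seen.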

Additional observations from a re-analysis of the deposited data

Results flagged for a closer look

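For 2 of the 10 genes the log2 ratio of Ctla2a-positive over other barcodes had opposite signs in the libraries. Prdx1 had -0.063 in UT and 0.093 in IMQ, and Mgst1 had -0.15 in UT and 0.18 in IMQ. All 4 intervals covered 0, and the difference between the libraries was not tested.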

How the results depend on the processing

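With 1 library per group no replicate could be left out. No paired analysis was possible because each group had 1 library. The median log2 ratio of the 10 genes, -0.23, was 0.25 under TMM and 0.24 under median-of-ratios scaling, and -0.83 over all deposited barcodes. Gpx3 changed sign under these scalings (0.24 and 0.23), with UMIs of mitochondrial and ribosomal protein genes and of Gm42418 and AY036118 left out (0.016), over all deposited barcodes (0.068) and in barcodes of 5 to 10% mitochondrial UMIs (1.23). Over all deposited barcodes Prdx6 had -0.082 and Mgst1 -0.29, and in barcodes of 5 to 10% Mgst1 had -0.037. The causes were not tested, except that a scaling moves every gene by the same amount.

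The count of genes 2-fold lower in IMQ, 1, was 2 with the 10% maximum (30.7% of all genes), with top Scrublet scores removed (28.5%), without barcodes carrying other cell types' markers (27.4%) and in barcodes of 5 to 10% (23.2%). It was 3 in Ctla2a-negative barcodes (29.2%), 3 with a minimum of 500 genes (24.2%), which left 37 IMQ barcodes and gave Gpx3 -1.41, and 4 over all deposited barcodes (51.1%). The count 2-fold higher, 0, was 1 with that minimum (6.32%) and 1 in barcodes of 5 to 10% (3.87%). In Ctla2a-positive UT barcodes the count 2-fold higher, 1, was 0 in barcodes of 5 to 10% (4.21%), where Gpx3 had -0.099 and Sod3 0.19, and 4 above 10% (4.76%), where 3 barcodes were positive. In IMQ it was 0, and 4 with the minimum of 500 genes (15.0%), 1 after thinning (1.03%) and 1 above 10% (1.76%). The count 2-fold lower, 0 in both, was 1 in UT after thinning (4.80%) and 2 at 5 to 10% (13.2%), and in IMQ 2 at 500 genes (19.6%) and 1 at 5 to 10% (1.70%). Genes with no UMI in the positive barcodes have no ratio and are not in these counts. In UT this left out Cat at 5 to 10% (0 against 8 UMIs). Above 10%, where 48.8% of all genes were 2-fold lower, it left out Gpx4 (0 against 9), Prdx1 (0 against 8), Mgst1, Sod1, Sod3 and Cat. The splits by 5 to 10%, above 10% and Ctla2a were chosen after seeing the data. The kept barcodes were too few in UMIs to show a difference in Cat of up to about 2-fold or, in IMQ, to split Sod3 further. Over all deposited barcodes Cat had a log2 ratio of -0.91 (-1.56 to -0.25), beside a median gene of -1.02.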
